A study of Mus musculus with 2 samples.

Results

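The oligodendrocyte lineage is described here through 10 genes, chosen by name in the GENCODE M21 annotation of mm10 from 55413 annotated genes, 21938 of them protein-coding. They are the transcription factor genes Olig1, Olig2, Sox8, Sox10, Nkx2-2, Nkx6-2 and Myrf and the precursor genes Pdgfra, Cspg4 and Gpr17. The rule applies no measured value, and it was set with earlier results of these data known. DNase-seq was made from the left cerebral cortex of 2 female B6CASTF1/J mice (F1 offspring of B6 and CAST parents) aged 36 days, 1 library per mouse. Neither mouse has a treatment or an engineered allele in the labels, and both belong to 1 group, so there is no contrast between conditions and no test. The tissue is whole cortex, in which the oligodendrocyte lineage is a part of the cells; fewer cells of a type and less accessibility per cell cannot be told apart. How far CAST alleles, compared with a reference of the B6 strain, moved any value was not tested.

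Oligodendrocytes wrap axons in myelin and arise from precursors that stay in the cortex throughout life. The basic helix-loop-helix factors Olig1 and Olig2, which bind E-box sequences, and the SoxE factors Sox8 and Sox10 hold cells in the lineage. The homeodomain factors Nkx2-2 and Nkx6-2 act at its specification and maturation, and Myrf, a membrane-bound factor that is cleaved to reach the nucleus, switches on myelin genes. Precursors carry Pdgfra, the receptor that answers the growth factor PDGF, and Cspg4, the proteoglycan NG2, while Gpr17 is a receptor of committed precursors on their way to myelinating cells.

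DNase I cuts DNA that is not packed away, and a peak is a stretch with many cuts. Each library has 2 deposited peak lists: in the shorter one every peak in the windows of these genes held a position with a false discovery rate of the cut rate under 0.001, and in the longer one under 0.05. Unless the longer list is named, values are from the shorter one. The peak height is the authors' own value with an unstated scale, and heights in replicate 2 were a median 0.744 of those in replicate 1 over the 45612 regions with 1 peak from each mouse. Heights are therefore given as pairs, replicate 1 and then replicate 2. Regions are peaks of the mice merged where they overlapped by 1 bp or more. A gene's window is its body with 50 kb on each side, and a region was at a start when its centre lay within 1 kb of one. For counts of genes with a start region, any part of a region within 1 kb of a start was enough.

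The sequences of 12 regions are shown first. They hold start regions and other sites of these genes, not all of them tall, with the protein footprints in them. Footprints are short stretches protected from cutting. The 12 regions were picked after their heights were known, and higher regions at Sox8, Myrf, Cspg4 and Gpr17 are described without their sequence. Each is given 5′ to 3′ on the strand of the gene, from the RefSeq copy of GRCm38 with mm10 coordinates, and capitals mark bases inside a footprint in both mice. Bases of untranslated regions were left out, as were exons at a gene's own start, so 3 of the 12, those at the starts of Olig1, Sox8 and Pdgfra, are a part of their region.

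At Olig1 and Olig2, neighbours on chromosome 16 and on its forward strand, the Olig1 start (chr16:91269561-91269771), the site 3.6 kb upstream of it (chr16:91266041-91266280) and the site 44.6 kb downstream of it (chr16:91314241-91314440) were:
Olig1 start: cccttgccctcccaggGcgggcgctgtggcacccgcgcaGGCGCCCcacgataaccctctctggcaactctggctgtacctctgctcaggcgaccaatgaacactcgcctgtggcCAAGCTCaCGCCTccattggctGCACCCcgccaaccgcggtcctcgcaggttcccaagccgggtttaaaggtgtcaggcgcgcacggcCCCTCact
Olig1 upstream site: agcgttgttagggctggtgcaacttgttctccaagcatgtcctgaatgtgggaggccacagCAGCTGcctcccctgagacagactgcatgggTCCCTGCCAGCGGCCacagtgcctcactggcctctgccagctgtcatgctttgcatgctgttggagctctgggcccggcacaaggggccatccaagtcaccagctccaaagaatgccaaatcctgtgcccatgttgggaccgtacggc
Olig1 downstream site: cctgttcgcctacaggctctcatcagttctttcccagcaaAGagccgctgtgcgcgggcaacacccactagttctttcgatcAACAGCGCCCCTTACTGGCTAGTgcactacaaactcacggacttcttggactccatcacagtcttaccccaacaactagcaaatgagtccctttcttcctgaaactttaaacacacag

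At the SoxE genes, both on the reverse strand, the Sox8 start (chr17:25570687-25570900) and the sites 16.5 kb (chr15:79148661-79148860) and 38.5 kb (chr15:79126581-79126820) downstream of the Sox10 start were:
Sox8 start: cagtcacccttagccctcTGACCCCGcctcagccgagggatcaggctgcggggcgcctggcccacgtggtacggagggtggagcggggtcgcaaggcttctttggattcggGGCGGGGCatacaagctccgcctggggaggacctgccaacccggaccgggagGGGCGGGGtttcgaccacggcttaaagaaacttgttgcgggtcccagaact
Sox10 nearer site: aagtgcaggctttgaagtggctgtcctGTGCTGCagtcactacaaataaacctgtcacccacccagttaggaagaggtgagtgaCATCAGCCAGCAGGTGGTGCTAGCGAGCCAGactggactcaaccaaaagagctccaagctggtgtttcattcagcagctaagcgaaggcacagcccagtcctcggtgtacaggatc
Sox10 farther site: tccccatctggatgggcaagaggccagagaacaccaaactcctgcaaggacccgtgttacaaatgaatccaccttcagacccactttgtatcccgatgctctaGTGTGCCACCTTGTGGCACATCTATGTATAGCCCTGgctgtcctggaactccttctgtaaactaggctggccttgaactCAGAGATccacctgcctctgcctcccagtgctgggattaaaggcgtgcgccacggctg

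For Myrf (reverse strand) the sites 17.9 kb (chr19:10258501-10258700) and 25.9 kb (chr19:10266521-10266720) upstream are shown, and for Nkx2-2 (reverse strand) the site 16.4 kb downstream of its first start (chr2:147177801-147177980):
Myrf nearer site: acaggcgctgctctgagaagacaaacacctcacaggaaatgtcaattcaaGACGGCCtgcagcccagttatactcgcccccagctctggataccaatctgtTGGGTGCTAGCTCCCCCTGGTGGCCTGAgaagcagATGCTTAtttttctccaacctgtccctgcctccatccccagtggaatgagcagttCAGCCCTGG
Myrf farther site: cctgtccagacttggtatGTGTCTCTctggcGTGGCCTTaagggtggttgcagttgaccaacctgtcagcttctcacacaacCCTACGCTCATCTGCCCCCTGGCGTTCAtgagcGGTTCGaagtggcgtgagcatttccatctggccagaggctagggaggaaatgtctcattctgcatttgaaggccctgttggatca
Nkx2-2 site: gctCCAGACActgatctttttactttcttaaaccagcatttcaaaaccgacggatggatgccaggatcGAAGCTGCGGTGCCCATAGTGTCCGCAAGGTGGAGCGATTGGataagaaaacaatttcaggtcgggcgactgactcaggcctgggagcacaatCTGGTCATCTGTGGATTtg

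For the precursor genes, both on the forward strand, the site 4.1 kb into Pdgfra (chr5:75156350-75156480), the intron site 4.7 kb into Cspg4 (chr9:56869561-56869860) and the site 21.2 kb upstream of Cspg4 (chr9:56843681-56843900) were:
Pdgfra site: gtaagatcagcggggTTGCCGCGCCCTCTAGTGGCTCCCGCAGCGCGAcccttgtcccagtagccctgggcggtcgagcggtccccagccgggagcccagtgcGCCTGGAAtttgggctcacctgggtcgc
Cspg4 intron site: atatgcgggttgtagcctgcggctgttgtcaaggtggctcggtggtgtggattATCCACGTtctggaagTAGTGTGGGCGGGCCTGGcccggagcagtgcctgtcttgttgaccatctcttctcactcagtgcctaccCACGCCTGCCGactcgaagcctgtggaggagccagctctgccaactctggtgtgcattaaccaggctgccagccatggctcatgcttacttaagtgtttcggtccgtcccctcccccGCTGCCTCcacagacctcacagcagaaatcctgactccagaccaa
Cspg4 upstream site: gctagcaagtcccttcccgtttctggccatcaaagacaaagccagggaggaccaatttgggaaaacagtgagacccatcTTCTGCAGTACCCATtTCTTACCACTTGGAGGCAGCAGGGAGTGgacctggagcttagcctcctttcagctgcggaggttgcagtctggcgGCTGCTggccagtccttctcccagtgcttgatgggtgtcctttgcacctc

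Of the 10 genes, 4 had a region called in both mice within 1 kb of an annotated start: Sox8, Pdgfra, Myrf and Olig1. Over all 21938 protein-coding genes the share was 61.1%. In the longer lists Olig2 and Nkx6-2 joined them, giving 6 of 10 against 65.5% of coding genes. Sox10, Nkx2-2, Cspg4 and Gpr17 had none in either pair of lists. The first starts of Olig1, Olig2, Sox8, Myrf, Nkx2-2 and Nkx6-2 are CpG-rich (an observed-to-expected CpG ratio of at least 0.6 and a GC content of at least 55% over 1001 bp), and 3 of these 6 had a start region in both mice, where 93.7% of the coding genes with a CpG-rich first start did. Of the other 4 genes Pdgfra alone had one, against 40.8% of coding genes of that kind. In the longer lists 5 of the 6 CpG-rich genes and 1 of the other 4 had one. The longer-list share of coding genes was not split by CpG content. CpG content was taken at the first start only, and the Pdgfra region lay at later starts, 4.1 kb past the first. The first start of Nkx2-2 is that of non-coding transcripts, and its coding starts lie 7839 bp and 8142 bp past it. Single positions under a rate of 0.05 lay within 1 kb of a start in both mice for 7 of the 10 genes (66.3% of coding genes), the exceptions being Sox10, Nkx2-2 and Cspg4.

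**Figure D1:**
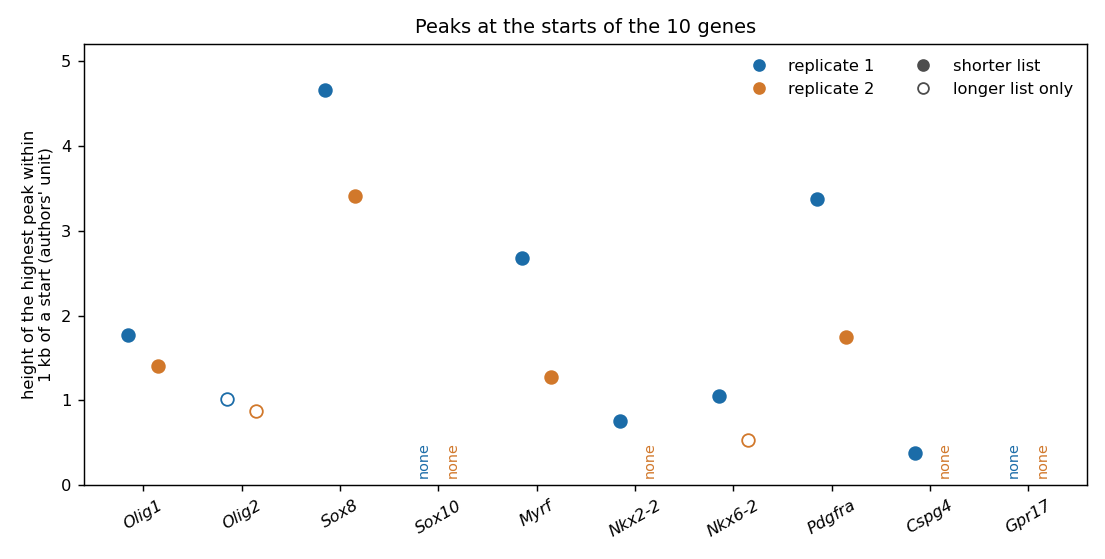
Highest deposited peak within 1 kb of any annotated start of each gene (y axis, authors' height unit) in replicate 1 (blue) and replicate 2 (orange). Filled points are from the shorter list, open points from the longer list where the shorter has none, and "none" marks neither; Sox8 is highest (4.66 and 3.41), Olig2 has open points in both mice, and Sox10 and Gpr17 have no point.

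The Olig1 start was called in both mice in the shorter lists, and that of Olig2 in the longer lists alone. Olig1 (chr16:91269772-91271933, a gene with a single exon) had a start region at 1.77 and 1.41, higher than 66.3% and 71.3% of all peaks in the respective lists, with 7 footprints in each mouse. Positions under a rate of 0.05 covered 1310 bp and 1362 bp within 1 kb of its start, and lower regions ran on into the gene, 0.4 kb (0.693 and 0.454) and 0.9 kb (0.578 and 0.634) past the start. Olig2 (chr16:91225457-91228677) had no peak of the shorter list at its start in either mouse. Its longer lists held peaks 66 bp upstream (1.02 and 0.87) and 541 bp upstream (0.936 and 0.651) in both mice, with lowest rates of 0.0032 and 0.00097. Positions under 0.05 covered 414 bp and 400 bp there.

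The windows of the Olig genes overlap, and the 7 regions called in both mice in the window of Olig1 include 4 of the 5 in that of Olig2. Away from starts, the site 3.6 kb upstream of Olig1 reached 1.33 and 1.01. The site 44.6 kb downstream, in an intron of the reverse-strand lincRNA gene Gm15966, reached 1.92 and 1.35, above the Olig1 start in replicate 1 and below it in replicate 2. Lower regions lay 36.2 kb (0.547 and 0.578) and 51.0 kb downstream of Olig1 (0.48 and 0.359), both in Gm15966. Olig2 had 1 further region, 33.4 kb upstream (0.632 and 0.505), in intergenic sequence.

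Sox8 (chr17:25565892-25570686, reverse strand) had the highest start region and the densest window of the 10 genes. The start region, which it shares with the antisense gene 2810468N07Rik, stood at 4.66 and 3.41, higher than 89.8% and 91.8% of peaks, with 6 footprints in each mouse. Within the gene a region centred in an exon 2.7 kb past the start reached 3.96 and 1.96, and 5 more regions of 0.623 to 1.19 lay between 0.5 kb and 4.2 kb past it. The region 14.1 kb downstream, in an intron of the lincRNA gene AC131323.3, was 660 bp wide and reached 2.97 and 2.63, with 14 and 11 footprints. The window held 13 regions called in both mice, among them the start of Lmf1, a lipase maturation factor gene, at 5.28 and 3.68.

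Sox10 (chr15:79154908-79165240, reverse strand), the close relative of Sox8, had nothing listed at its starts. No position under 0.05 was listed within 1 kb of any of its 4 annotated starts in either mouse, and no peak of the shorter lists lay in the gene. The longer list of replicate 1 held a single peak there, 2.2 kb past the first start (0.705). Its window still held 5 regions called in both mice. The start shared by Polr2f, an RNA polymerase subunit gene, and 1700088E04Rik stood at 6.3 and 4.48, 24.0 kb downstream. In an intron of Polr2f, 16.5 kb downstream of the Sox10 start, lay the highest region away from starts, at 3.11 and 1.35. In an intron of Micall1 lay regions 38.5 kb (1.5 and 0.903) and 38.8 kb downstream (0.967 and 0.656). On the upstream side, a site 28.1 kb away in an intron of the non-coding gene Gm10863 was called in replicate 2 only (0.668). Its longer-list peaks stood at 0.687 and 0.668.

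Nkx2-2 (chr2:147177546-147194243, reverse strand) had 1 region called in both mice, and it was tall. This site, in an exon of a non-coding transcript of the gene 16.4 kb past its first start, reached 5.09 and 2.01, higher than 91.5% and 82.1% of peaks. The other regions of the shorter lists were called in replicate 1 alone. One of them, 15.3 kb past the first start, stood at 1.49 and had a longer-list peak of 0.886 in replicate 2, where its lowest rate was 0.0077. A region 8.5 kb past the first start, and within 1 kb of the starts of its coding transcripts, stood at 0.754 in replicate 1, and positions under 0.05 near the 4 starts covered 1540 bp in replicate 1 and 0 bp in replicate 2. In the longer lists the window held 2 regions of both mice, 14 of replicate 1 alone and 0 of replicate 2 alone, and 40 and 5 footprints.

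Nkx6-2 (chr7:139579376-139582797, reverse strand) had a start region at 1.05 in replicate 1, while in replicate 2 the longer list alone held a peak there, at 0.539. Positions under 0.05 covered 996 bp and 210 bp. The 2 regions of both mice in its window were the start of Cfap46 (2.58 and 1.37), 33.6 kb upstream, and a site in an intron of Inpp5a (1.03 and 0.886), 44.1 kb downstream. A site 7.7 kb upstream (1.07) was called in replicate 1 only.

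Myrf (chr19:10208272-10240748, reverse strand) had a start region at 2.68 and 1.27, higher than 77.8% and 66.8% of peaks, with 3 footprints in each mouse. The body of the gene held no other region of the shorter lists in either mouse. Upstream, 4 regions of both mice lay in introns of the neighbouring gene Dagla, a diacylglycerol lipase gene, at distances of 17.9 kb (3.9 and 1.78), 25.9 kb (2.8 and 1.59), 32.3 kb (1.78 and 1.58) and 35.9 kb (1.29 and 0.982). The nearest was higher than the start itself in both mice. A site 3.6 kb upstream, between the genes, was called in replicate 1 only (1.88). The longer list of replicate 2 held a peak of 0.825 there, with a lowest rate of 8.8e-06, and each mouse had 3 footprints. On the downstream side the starts of Fen1 and Tmem258 shared a region at 5.36 and 3.51, and that of Fads1 stood at 4.75 and 3.7.

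Pdgfra (chr5:75152292-75198215, forward strand) has 9 annotated starts spread over its first 9542 bp. The region called in both mice was not at the first of them but 4.1 kb in, between the starts of the transcripts Pdgfra-202 and Pdgfra-209, which lie 3607 bp and 4541 bp past the first. It reached 3.37 and 1.75, higher than 83.1% and 78.5% of peaks. At the first start, a region 1.0 kb upstream stood at 1.2 in replicate 1 and, in the longer list, at 0.926 in replicate 2. Counting that one, replicate 1 alone had 7 regions in the window, at 0.62 to 1.36. Positions under 0.05 within 1 kb of the starts covered 2934 bp and 590 bp, and 5 of the 7 regions held such a position in replicate 2. At the far end, 95.2 kb past the first start, an intergenic region stood at 0.724 and 0.959. Beside it, 95.5 kb past the first start, another stood at 0.474 and 0.449, with 0 footprints in either mouse.

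Cspg4 (chr9:56865033-56899870, forward strand) had no peak of the shorter list at its first start. The longer list of replicate 1 held a peak there at 0.76, and replicate 2 had no listed position. Within its introns 4 regions were called in both mice: 3.5 kb (1.71 and 1.27), 4.7 kb (2.69 and 1.89), 24.9 kb (1.45 and 1.71) and 26.6 kb (1.19 and 1.06) past the start. Upstream, sites at 17.3 kb (3.12 and 1.48) and 21.2 kb (2.41 and 1.58) were the highest outside the gene and away from starts. The window thus held 6 regions of both mice away from any start, beside an unlisted or weak first start.

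At the end of Cspg4 the mice differed. From 31.0 kb to 36.4 kb past the start, 6 regions were called in replicate 1 alone at heights of 0.243 to 0.645, 4 of them centred in an exon and 4 within 1 kb of the start of a retained-intron transcript. Their lowest rates ran from 0.00057 down to 3.2e-17, with 13 footprints. In replicate 2 none of the 6 held a listed position or a footprint. What set the mice apart there was not tested.

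Gpr17 (chr18:31942997-31949636, reverse strand) had no peak of the shorter or longer list within 1 kb of its start. Positions under 0.05 covered 37 bp and 6 bp, with lowest rates of 0.015 and 0.043. The 2 regions of both mice in its window were at Sft2d3, a single-exon neighbour: its start at 5.67 and 4.24, 38.4 kb downstream of the Gpr17 start, and a region in its exon at 4.71 and 3.64. Another region, 35.0 kb downstream, was called in replicate 1 only (1.14). In the longer list of replicate 2 a peak of 0.393 lay in the gene, 2.9 kb past its start.

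**Figure D2:**
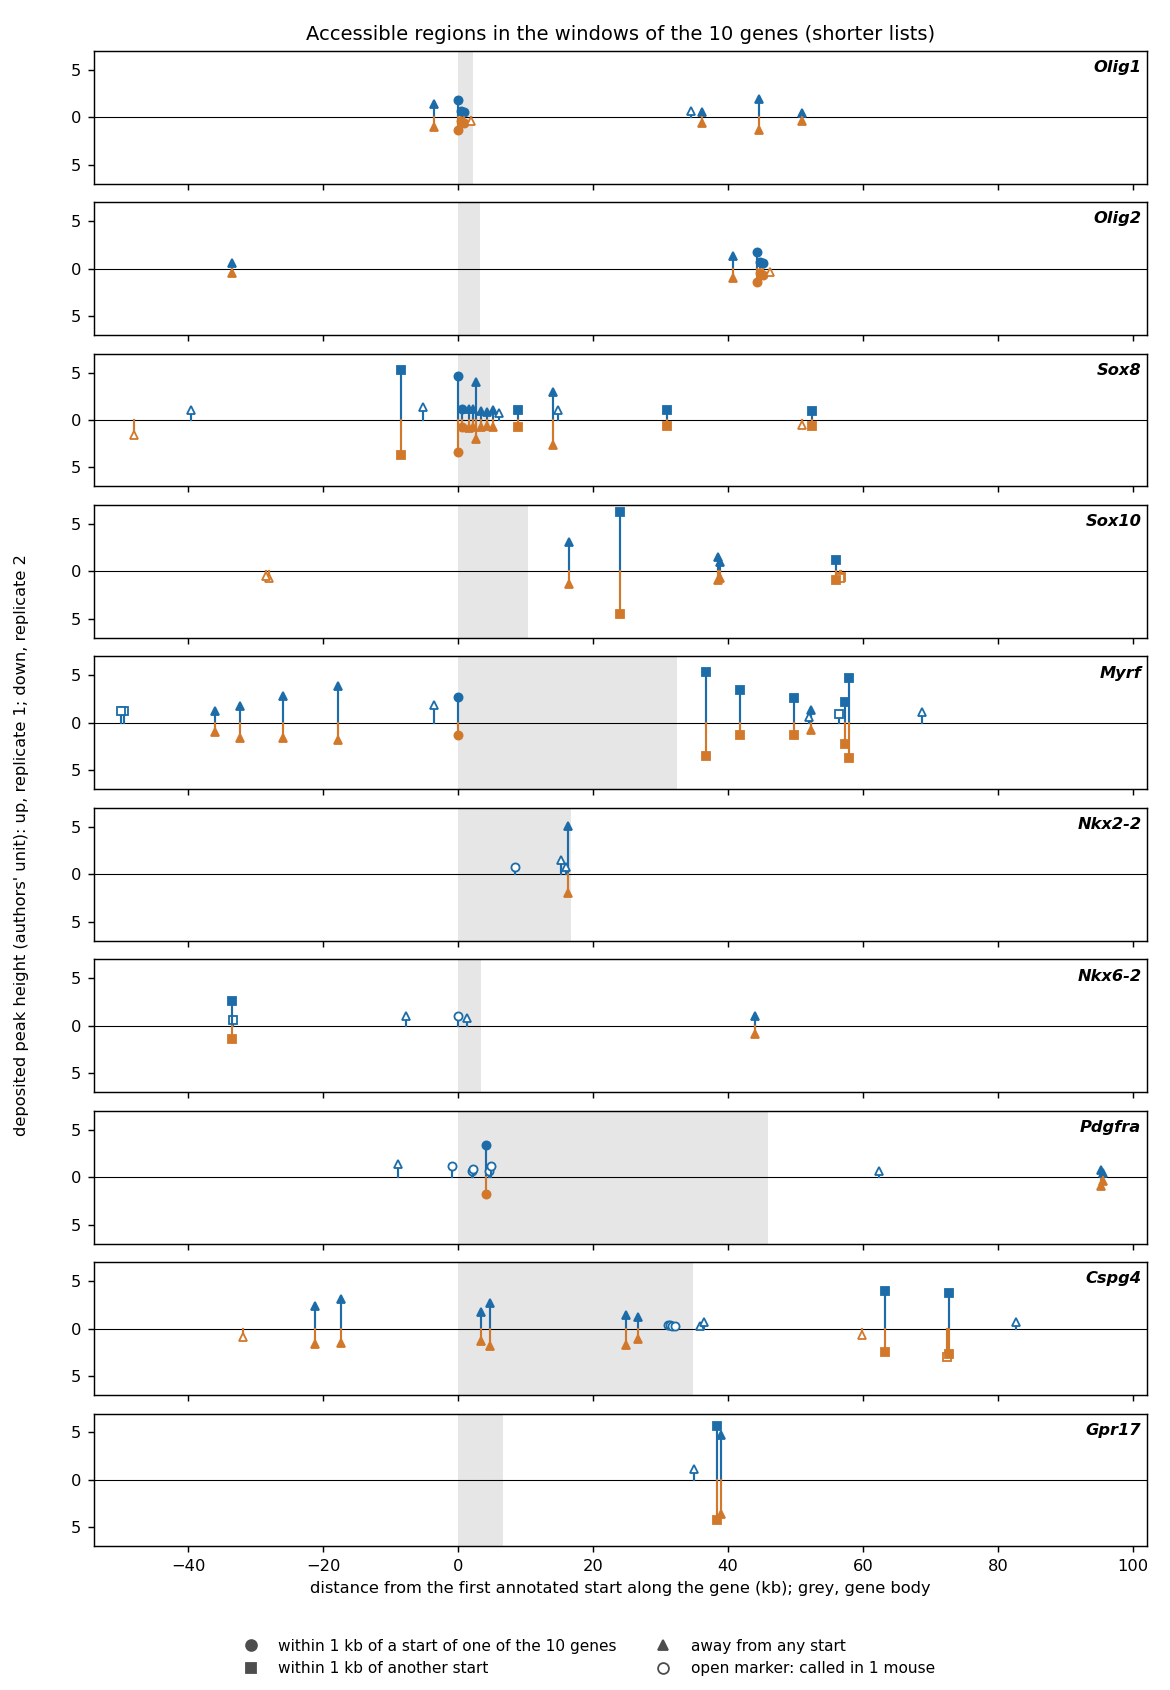
Regions of the shorter lists along the window of each gene: distance of the region's centre from the first annotated start (x axis, kb, in the direction of transcription, gene body in grey) against the deposited peak height (y axis, authors' unit), replicate 1 upward and replicate 2 downward. Circles are at starts of the 10 genes, squares at other starts, triangles away from starts, and open markers were called in 1 mouse; Sox8 has the densest window, Olig2, Sox10 and Gpr17 have no marker in their bodies, and Cspg4 has a row of low open circles near its end.

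Together the windows held 96 merged regions, of which 53 (55.2%) were called in both mice, against 58.6% of the 83423 regions of the genome. Of the 53, 7 were at starts of the 10 genes, 15 at starts of neighbours and 31 away from any start, 18 of these in introns, 6 in exons and 7 in intergenic sequence. Over the genome 27984 of the 48886 regions called in both mice lay away from starts. Every gene had at least 1 such region in its window, including the 6 that had none at a start. The windows reach into neighbouring genes: the only one for Gpr17 lay in the exon of Sft2d3, and that for Nkx6-2 in Inpp5a. The share of coding genes with such a region in their window was not counted. The density was 1.24 regions of both mice per 10 kb for Sox8, higher than 97.5% of coding genes, 0.83 for Myrf, 0.685 for Olig1, 0.593 for Cspg4, 0.484 for Olig2 and 0.453 for Sox10. It was 0.206 for Pdgfra, 0.193 for Nkx6-2, 0.188 for Gpr17 and 0.0857 for Nkx2-2, lower than the coding-gene median of 0.331. The median of the 10 was 0.469. With flanks of 10 kb in place of 50 kb the order turned, at 0.301 for the 10 genes and 0.352 for coding genes.

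**Figure D3:**
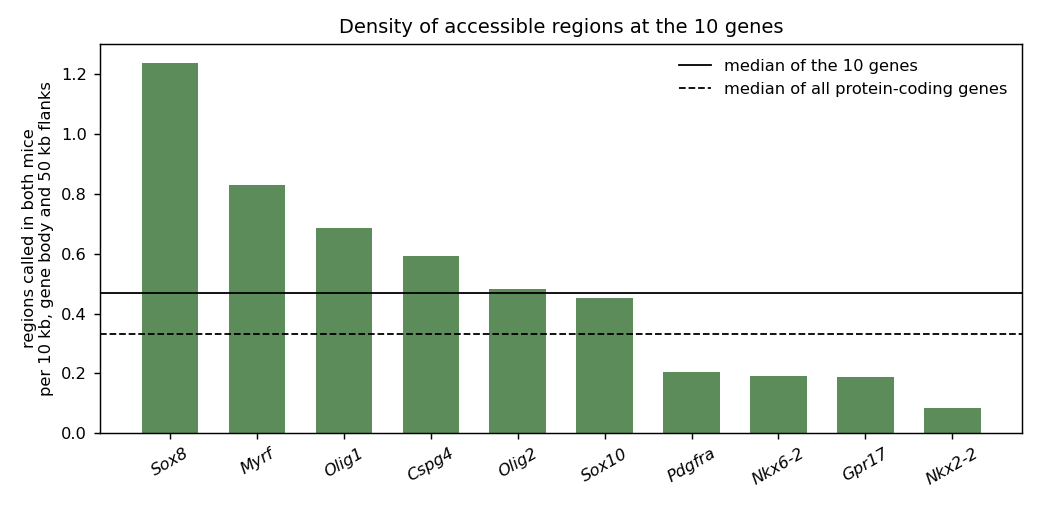
Density of regions of both mice over each window (y axis, count per 10 kb), as bars from 0. The solid line is the median of the 10 genes (0.469) and the dashed line that of all protein-coding genes (0.331); 6 bars reach above the dashed line.

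Regions called in a single mouse were unevenly split. Replicate 1 alone had 33 and replicate 2 alone 10, so 76.7% of the single-mouse regions were of replicate 1, against 49.7% over the genome (17179 and 17358). At the starts of the 10 genes lay 11 regions of replicate 1 alone and 0 of replicate 2 alone: 5 at Pdgfra, 4 at the retained-intron transcript of Cspg4, 1 at Nkx2-2 and 1 at Nkx6-2. How single-mouse regions at starts split over the genome was not counted. Neighbouring regions can be parts of 1 site: those 2.0 kb and 2.1 kb past the first Pdgfra start lie in 1 longer-list region, and the 4 at Cspg4 belong to 1 run. Pdgfra and Cspg4 had 7 each of replicate 1, Myrf 6, Sox8 and Nkx6-2 4 each and Nkx2-2 3. The window of Sox10 had 4 of replicate 2 and 0 of replicate 1. Of those 4, the pair 56.5 kb and 56.7 kb downstream lies in 1 longer-list region, and the pair 28.1 kb and 28.4 kb upstream in another. Both longer-list regions were called in both mice. Without the windows of Nkx2-2, Pdgfra and Cspg4 the share of replicate 1 among single-mouse regions was 69.6%. Near the other gene lists it ran from 32.4% (microglial genes) to 66.0% (astrocyte genes). In the longer list of the other mouse, 18 of the 33 regions of replicate 1 and 8 of the 10 of replicate 2 overlapped a peak (54.5% and 80.0%, against 45.1% and 57.4% over the genome).

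**Figure D4:**
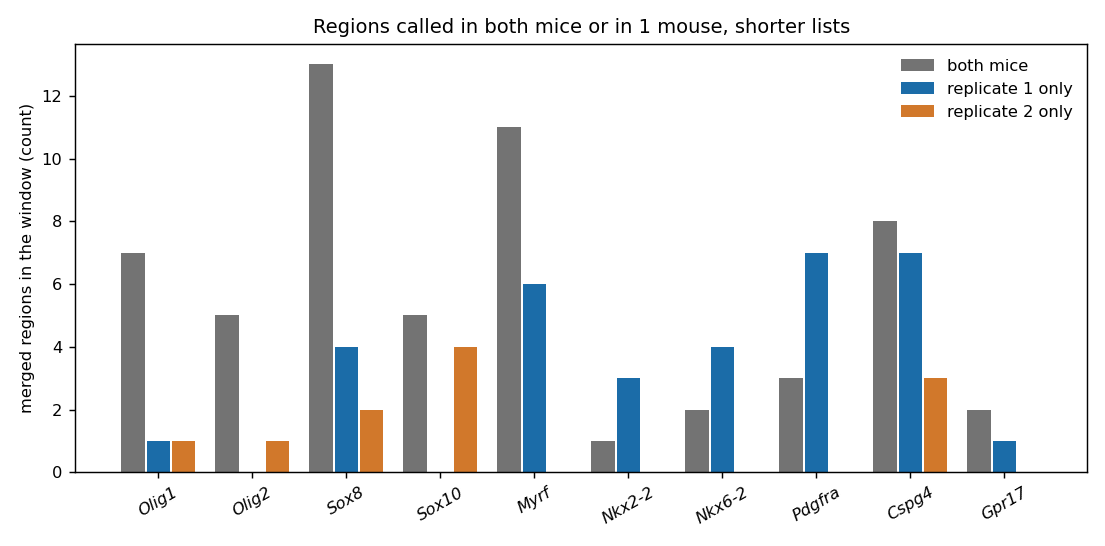
Merged regions of the shorter lists in the window of each gene (y axis, count, bars from 0), split into those called in both mice (grey), in replicate 1 only (blue) and in replicate 2 only (orange). The windows of Olig1 and Olig2 overlap and share regions; Pdgfra, Nkx2-2 and Nkx6-2 have more regions of replicate 1 alone than of both mice.

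In the regions called in both mice, heights kept nearly the genome's ratio between the mice. Over the 50 regions of the windows with 1 peak per mouse, the log2 ratio of replicate 2 to replicate 1, centred on the median of all regions, had a median of -0.05 and ran from -1.03 to 0.83. It was below 0 in 28 of the 50, and the SD over all regions was 0.477. The lowest value was that of a region at the start of Gm10143 in the Myrf window, followed by the Nkx2-2 site at -0.91. Among the tall sites shown above, the Sox10 site in Polr2f stood at -0.78 and the nearer Myrf site at -0.7. Tall regions leaned this way over the genome too. In 12292 regions away from starts and above both lists' median heights, the median was -0.23, with quartiles of -0.67 and 0.14. Of these regions 64.9% were below 0. The highest value was that of the region 95.2 kb past the first Pdgfra start, and the Cspg4 site 24.9 kb into the gene stood at 0.66.

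Footprints lay in both mice in 46 of the 53 regions (86.8%, against 93.2% of all regions called in both mice). The 53 regions held 215 footprints in replicate 1 and 183 in replicate 2, 4 held them in 1 mouse only and 3 in neither. The printed sequences show their letters. At the site upstream of Olig1 a stretch inside footprints of both mice is exactly CAGCTG, an E-box of the kind that basic helix-loop-helix factors bind, and a second CAGCTG in the same site lies outside footprints. At the farther Myrf site the letters CAGATG, read on the other strand, lie inside a footprint, as they do at the end of the Nkx2-2 site. The Sox8 start and the Cspg4 intron site each hold a GC box (GGGCGG) inside one.

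Several wide footprints held letters close to a consensus of CTCF, the zinc-finger protein that holds chromatin loops and insulates domains. With up to 1 mismatch to the CTCF consensus of 14 bases on either strand, a match lay wholly inside footprints of both mice at 6 of the 23 regions whose sequence was read. They were the Olig1 downstream site (bases 87 to 100 of the sequence shown), both Sox10 sites (bases 91 to 104 of the nearer and 106 to 119 of the farther), the nearer Myrf site (bases 111 to 124), the exon region of Sox8 (whose sequence is not shown) and the Pdgfra site (bases 21 to 34, with 0 mismatches). With 2 mismatches the farther Myrf site and the Cspg4 upstream site made it 8. At the farther Myrf site that match overlaps the CAGATG inside a footprint named above. The matches at both Sox10 sites and at the Cspg4 upstream site likewise overlap the letters named there. Among the 23, the longest run of bases inside footprints of both mice, 42 bp at the Nkx2-2 site, had no match closer than 3 mismatches. The allowance for mismatches was chosen after these sequences had been seen.

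The share of such letters at these genes was close to that of the genome. Within 100 bp of the centre, 8 of the 31 regions away from starts (25.8%) had a match with up to 1 mismatch, against 26.8% of the 27984 such regions of the genome. Above both lists' median heights (1.17 and 0.909) it was 7 of 17 (41.2%) against 39.1%, and wholly inside footprints of both mice 6 of 17 (35.3%) against 36.2%. With no mismatch allowed it was 0 of 31 against 10.0%. At the farther Sox10 site 48.8% of the bases are marked as repeats in the RefSeq sequence. A match describes letters and not a bound protein.

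**Figure D5:**
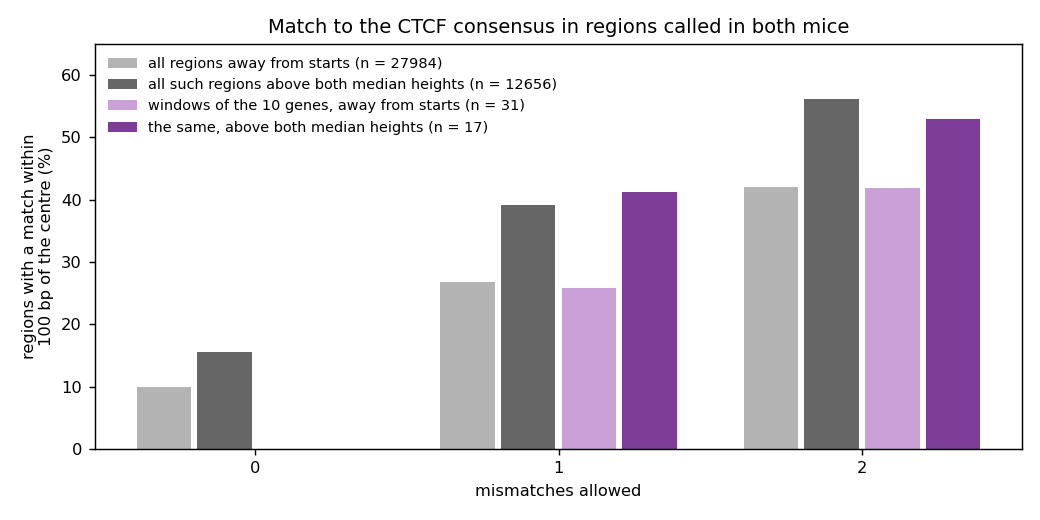
Share of regions called in both mice and away from starts whose central 200 bp hold a match to the CTCF consensus on either strand (y axis, %, bars from 0) with 0, 1 or 2 mismatches allowed (x axis). Light and dark grey are all regions of the genome and those above both median heights, light and dark purple the same in the windows of the 10 genes; with 1 mismatch the purple bars (25.8% and 41.2%) stand beside grey bars of 26.8% and 39.1%.

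Letters bound by families of the lineage factors, and those of AP-1 beside them, were searched on both strands in the same windows. Of the 31 regions away from starts, 26 held an E-box CANNTG (83.9%, against 74.9% of all regions away from starts), 8 the form CAGCTG (25.8% against 20.1%), 7 CAGATG (22.6% against 24.5%) and 0 CATATG (0.0% against 4.3%). All of the last 3 are forms of CANNTG. The SOX core ACAANG was in 5 (16.1% against 32.5%) and the NKX2 core CCACTTNA in 1 (3.23% against 2.48%). The homeobox core TAATTA was also in 1 (3.23% against 2.82%). The AP-1 letters TGANTCA were in 1 (3.23% against 11.2%).

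Other genes of the lineage and of other cortical cells give these counts a scale. Over all coding genes the share with a start region in both mice was 61.1%. It was 93.7% with a CpG-rich first start and 40.8% for the others, and the lists that follow were not split by CpG content. Of 23 further genes of the oligodendrocyte lineage, 22 had a start region in both mice (95.7%), the highest at Id2 (7.66 and 5.73), Lingo1 (5.19 and 3.12) and Id4 (4.38 and 3.84), and Zfp488 had none. Many of these are shared with other cells of the cortex: Id2 and Id4 are inhibitors of helix-loop-helix factors, and Lingo1 is a receptor component also made by neurons. Of 13 myelin genes 5 had one (38.5%), a share near the 4 of 10 here, with the highest at Mbp (1.67 and 1.12), Cnp (1.38 and 1.09) and Trf (0.918 and 0.802), and none in both mice at Aspa, Cldn11 or Ermn. All 12 cortical excitatory neuron genes had one, such as Camk2a, a neuronal kinase gene (4.04 and 2.75).

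Since Pdgfra is also a gene of fibroblasts and Cspg4 one of pericytes, the lists of those cells were read beside them. Of 12 endothelial and pericyte genes 4 had a start region in both mice (33.3%), the highest at Slc2a1 (3.5 and 2.55), Erg (1.25 and 0.735) and Kcnj8 (0.9 and 0.572), and Abcc9, Cdh5 and Cldn5 had none. Among its pericyte genes Rgs5 (0.845 and 0.51) joined Kcnj8, while Pdgfrb and Abcc9 had a peak in replicate 2 only. Of 6 meningeal fibroblast genes 3 did: Col1a1 (3.49 and 2.59), Foxc1 (1.65 and 1.36) and Twist1 (0.711 and 0.359), with none at Col1a2, Dcn or Lum. Which cells gave the Pdgfra and Cspg4 regions was not tested. Astrocyte genes had 7 of 10 and microglial genes 3 of 10. Median densities were 0.379 for the other lineage genes, 0.324 for myelin genes and 0.549 for excitatory neuron genes, beside 0.469 for the 10 genes. They were 0.281 for astrocyte, 0.286 for microglial, 0.293 for endothelial and pericyte and 0.299 for meningeal fibroblast genes. All are with flanks of 50 kb, and the lists were not read with flanks of 10 kb.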

How the data were processed

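DNase-seq libraries of the left cerebral cortex of 2 mice were analysed. Peaks, footprints and cut-rate false discovery rates were made by the authors on mm10 library by library, per the deposited read-me, with an aligner and callers not given in the sources used here. The deposited peak height is a signal with an unstated normalization, so it was ranked within a list or compared as a log2 ratio centred on the median (-0.4271). The deposited rates, false discovery rates used as q-values, list positions under 0.05 only. The deposited footprint score is the same in every entry, so positions alone were used. The shorter lists hold 69208 and 69128 peaks and the longer 120027 and 120701; depth in reads is unknown.

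Peaks were merged and matched to GENCODE M21 and GRCm38 with Python 3.11.15, bedtools 2.31.1 and pysam 0.24.0, and the merging was tested on simulated data; 11 of 11 start codons of the genes read ATG. In each window the highest region of both mice at a start, and up to 3 highest away from starts by mean rank, were described, with all 10 genes. From each other list the 3 highest and up to 3 genes without a start region were named, except some that are not reported here. The genes, lists and rules were chosen with earlier results of these data known. The labels number the animals separately, and spread between them includes library preparation. Alternatives were other peak lists, overlaps, windows, flanks and each mouse alone.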

Additional observations from a re-analysis of the deposited data

How the results depend on the processing

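With 1 group of 2 mice no test was made, and counts moved with how strictly regions were called. The count of genes with a start region in both mice was 4 with peaks above their list's median height (54.6% of coding genes). It was also 4 with an overlap of at least 50% of each peak (57.2%) and with a promoter window of 500 bp (59.9%). It was 5 with 2 kb (62.8%, adding Cspg4) and 6 in the longer lists (65.5%). In replicate 2 alone it was 4 (62.3%), and in replicate 1 alone 7 (63.4%), adding Nkx2-2, Nkx6-2 and Cspg4. The 10 genes stood below the coding-gene share in each of these except replicate 1 alone. The 53 regions of both mice became 97 in the longer lists, 33 above the median heights, 25 with flanks of 10 kb and 90 with 100 kb, and 67 to 87 in a single mouse. Those away from starts (31) became 63, 17, 14 and 55 under the same settings, and 39 to 50 in a single mouse. Those with a footprint in both mice (46) became 87 in the longer lists and 56 to 73 in a single mouse. The median density (0.469) was 0.869 in the longer lists, 0.233 above the median heights, 0.42 with the stricter overlap, 0.301 with flanks of 10 kb and 0.633 to 0.682 in a single mouse; it stood above the coding-gene median under each of these except flanks of 10 kb (0.352). The median centred height ratio lay between -0.12 and 0.01 over all settings, 3 of which were chosen after seeing the data. No paired analysis was possible because the mice form 1 group. Depth in reads is unknown, so an unlisted start says only that no position passed a rate of 0.05.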
